A study of Mus musculus with 12 samples.

Results

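The complement genes described here are 9 genes of the complement system, chosen by name from the table of reads per gene: C1qa, C1qb, C1qc, C1ra, C1s1, C2, C3, C4b and Cfb. They are 9 of the 54134 genes in the table, and all 9 were among the 15585 genes with enough reads to be tested. RNA-seq was performed on inguinal white adipose tissue (iWAT, the subcutaneous fat of the groin) of male C57BL/6J mice, 6 AAV-GFP and 6 AAV-Notum. At 8 weeks of age every mouse received an adeno-associated virus of serotype 8 through the tail vein, carrying either GFP (green fluorescent protein, the control) or mouse Notum, which encodes a secreted Wnt inhibitor. Both transgenes were driven by the thyroxine binding globulin promoter, which is active in hepatocytes, so the fat was exposed to NOTUM made in the liver. Both groups were kept on chow for 4 weeks and fasted for 4 h before the tissue was taken. Each library came from 1 mouse. The questions put to the complement genes were whether their mRNA levels differed between the groups, and how their levels related to albumin (Alb) mRNA, a measure of liver RNA in the fat samples.

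Complement is a cascade of plasma proteins that marks particles and damaged cells for removal. In the classical pathway the C1 complex, built from the recognition protein C1q and the proteases C1r and C1s, cleaves C4 and C2, and the resulting C3 convertase cleaves C3. The alternative pathway makes its own convertase from C3 and factor B, with factor D (adipsin, made by adipocytes) cleaving factor B. The liver makes most of the C3 and C4 in plasma, whereas C1q is made largely by macrophages and dendritic cells, and fibroblasts make C1r, C1s and C4.

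The libraries held 14711113 to 21618860 reads in genes, and RNA integrity numbers ran from 5.7 to 7.6. Of the cell type marker lists, adipocyte markers were high in all mice (10 of 10 genes with reads, summed level 27800 to 46730 CPM in AAV-GFP and 23630 to 54510 CPM in AAV-Notum mice; CPM is the usual depth-scaled count, here on the TMM-normalized library). Lymphoid markers (15 genes) summed to 9.48 to 1819 CPM in AAV-GFP mice and to 566 to 2505 CPM in AAV-Notum mice, and were lowest in AAV-GFP-2011 and AAV-GFP-2014. Hepatocyte markers (20 genes) summed to 2328 to 11090 CPM in AAV-GFP and 1740 to 7422 CPM in AAV-Notum mice, with Apob, Ttr, Fga, Fgb, Ambp, Tat and F2 at 0 in at least 1 mouse. A single gene of that list, Cyp2e1, was at 1552 to 6979 CPM in these mice and made up most of the sum where Alb was low. Of the hepatocyte markers 19 of 20 had a lower mean in AAV-Notum mice, Cyp2e1 being the exception. Over all genes tested 48.8% had a log2 fold change below 0. Skeletal muscle markers (8 genes) summed to 8.38 to 802 CPM in AAV-GFP and 7.07 to 3754 CPM in AAV-Notum mice, highest in AAV-Notum-2042, and 7 of 8 endothelial markers were lower in AAV-Notum mice, 2 of them at an unadjusted p under 0.05 (edgeR). RNA of AAV-GFP-2012 was isolated on a later date than that of the other mice. Notum itself had 1 to 17 reads in AAV-GFP mice, 8 to 16 in 4 AAV-Notum mice, and 560 and 433 in AAV-Notum-2032 and AAV-Notum-2041, which were also the AAV-Notum mice of highest Alb.

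Compared per length of annotated exon, C3 was the most abundant member, at 351 ± 66.7 CPM per kb in AAV-GFP and 381 ± 75.5 in AAV-Notum mice (SD, n = 6 for every mean ± SD). C4b followed, at 256 ± 70.4 and 183 ± 41.4 CPM per kb. C1qa (109 ± 25.3 in AAV-GFP mice), C1s1 (108 ± 23.0) and C1qb (94.8 ± 22.4) came next, and these neighbours did not differ beyond their spread. C1qc (49.1 ± 11.4), C1ra (29.4 ± 5.19) and C2 (22.5 ± 7.22) were lower, and Cfb was far below all others at 1.71 ± 0.350 CPM per kb. On full exonic length C3 and Cfb, which meet in the alternative convertase, were thus the ends of the order. That length includes exons shared with other genes, and only 20.5% of it for Cfb, 53.1% for C2 and 81.6% for C1s1 belonged to no other gene. How reads in shared exons were counted is not given. The level of Cfb and the places of C2 and C1s1 in the order are therefore uncertain.

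Of the members 8 had a lower mean level in AAV-Notum than in AAV-GFP mice, and C3 a higher one. In edgeR's quasi-likelihood test 0 of 9 members passed an adjusted p of 0.05 in either direction, where 0.0513% of all genes tested were called lower and 0% higher. At an unadjusted p under 0.05, C1s1, C4b and C1ra (3 of 9) were lower, where 9.54% of all genes tested were, and 0 of 9 were higher, where 4.64% were. DESeq2 also called 0 of 9 members, where it called 2.26% of genes lower and 0.488% higher. By the exact permutation test C1s1 and C4b (2 of 9) were lower at an unadjusted p under 0.05, where 7.79% of all genes tested were. The median log2 fold change of the members was -0.20, beside 0.01 over all genes tested, of which 48.8% were below 0. In bulk tissue, fewer cells of a type and less RNA per cell cannot be told apart.

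**Figure D1:**
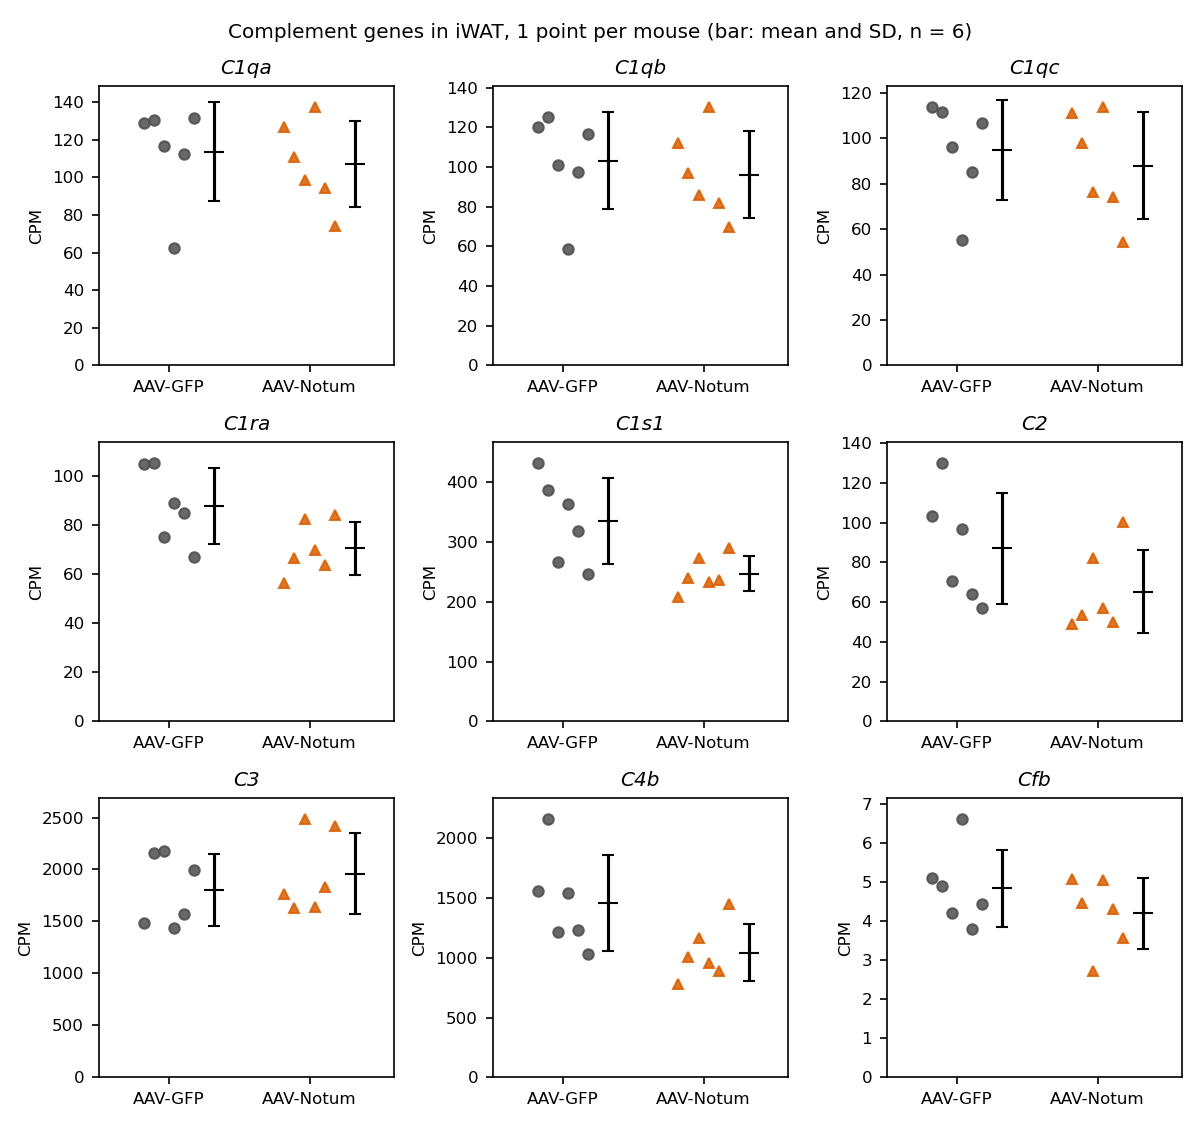
Level of each complement gene in CPM (linear axes from 0), 1 point per mouse, with the mean and SD of 6 mice beside each group. For C1s1, C4b and C2, 4 of 6 AAV-Notum mice sit below the lowest AAV-GFP mouse, while the groups overlap widely for the C1q chains and C3.

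The members of lowest p were C1s1, C4b and C1ra. C1s1 encodes the protease C1s, which cleaves C4 and C2. It is on chromosome 6 of GRCm38 (124530345 to 124542359, minus strand). Its level ran from 247 CPM through a median of 341 to 433 CPM in AAV-GFP mice, and from 209 through 238 to 291 CPM in AAV-Notum mice. In all, 4 of 6 AAV-Notum mice were below the lowest AAV-GFP mouse, AAV-GFP-2022, and 6 of 6 were below the AAV-GFP mean, which held for 14.2% of all genes tested. C1s1 was 336 ± 72.0 CPM in AAV-GFP and 247 ± 29.9 CPM in AAV-Notum mice, which is -0.44 on the log2 scale (standard error 0.14, unadjusted p = 0.00892, adjusted p = 0.215, edgeR; two-sided exact permutation p = 0.0238, adjusted 0.332). Without AAV-GFP-2011 and AAV-GFP-2014 the log2 fold change of C1s1 was -0.30, with an unadjusted p of 0.0544 from edgeR.

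C4b encodes complement C4, whose larger fragment anchors the classical convertase on a surface (chromosome 17, 34728380 to 34743882, minus strand). Its level ran from 1033 through a median of 1384 to 2160 CPM in AAV-GFP mice and from 782 through 982 to 1446 CPM in AAV-Notum mice. AAV-GFP-2012 was the highest mouse, 4 of 6 AAV-Notum mice were below the lowest AAV-GFP mouse, and AAV-Notum-2033 and AAV-Notum-2042 were within the AAV-GFP range. The log2 fold change of C4b was -0.48 (standard error 0.20, unadjusted p = 0.0318, adjusted p = 0.312, edgeR; exact permutation p = 0.0390), the largest of the 9 members. Leaving out AAV-GFP-2012, the mouse with the later RNA isolation, gave -0.34 with an unadjusted p of 0.0848 from edgeR, and leaving out both AAV-GFP-2011 and AAV-GFP-2014 gave -0.44 with 0.0872.

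C1ra encodes the protease C1r, which activates C1s within the C1 complex (chromosome 6, 124512405 to 124523443, plus strand). It ran from 67.2 through 86.9 to 105 CPM in AAV-GFP mice and from 56.5 through 68.2 to 84.2 CPM in AAV-Notum mice. Of the AAV-Notum mice 3 of 6 were below the lowest AAV-GFP mouse and 6 of 6 below the AAV-GFP mean. The difference was -0.32 on the log2 scale (standard error 0.13, unadjusted p = 0.0349, adjusted p = 0.322, edgeR; exact permutation p = 0.0519). Without both AAV-GFP-2011 and AAV-GFP-2014 it was -0.24, with an unadjusted p of 0.129 from edgeR.

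C2 encodes the protease of the classical C3 convertase (chromosome 17, 34862604 to 34898265, minus strand). Its level ran from 57.1 through 83.7 to 130 CPM in AAV-GFP mice and from 48.9 through 55.4 to 100 CPM in AAV-Notum mice. In the AAV-Notum group 4 mice lay below every AAV-GFP mouse, whereas AAV-Notum-2033 and AAV-Notum-2042 lay inside the AAV-GFP range. AAV-Notum minus AAV-GFP was -0.41 on the log2 scale (standard error 0.24, unadjusted p = 0.109, adjusted p = 0.425, edgeR; exact permutation p = 0.143). Without AAV-GFP-2012 the value of C2 was -0.26, and without AAV-Notum-2042, the mouse of highest muscle markers, -0.58 (unadjusted p = 0.0268, adjusted p = 0.206, edgeR).

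The C1q chains, which together form the recognition protein of the classical pathway, differed little between the groups. C1qa ran from 62.4 through 123 to 131 CPM in AAV-GFP mice and from 74.4 through 105 to 138 CPM in AAV-Notum mice. C1qb ran from 58.6 through 109 to 125 and from 69.8 through 91.6 to 130 CPM, and C1qc from 55.2 through 101 to 114 and from 54.3 through 87.1 to 114 CPM, in the same order of groups. AAV-GFP-2014 was the lowest AAV-GFP mouse for all 3 chains and AAV-Notum-2042 the lowest AAV-Notum mouse for all 3, and the groups overlapped. Their log2 fold changes were -0.09, -0.10 and -0.11 (standard errors 0.19, 0.19 and 0.21; adjusted p = 0.813, 0.783 and 0.785, edgeR). Without AAV-GFP-2014 they were -0.21, -0.22 and -0.22, and without AAV-Notum-2042 they were -0.00026, -0.023 and -0.0019.

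C3, the protein on which all pathways converge, is encoded on chromosome 17 (57203970 to 57228136, minus strand). C3 mRNA ran from 1441 through 1781 to 2173 CPM in AAV-GFP mice and from 1632 through 1798 to 2489 CPM in AAV-Notum mice. AAV-Notum-2033 and AAV-Notum-2042 were above every AAV-GFP mouse and the other 4 were inside the AAV-GFP range. The difference was 0.12 on the log2 scale (standard error 0.17, adjusted p = 0.698, edgeR; exact permutation p = 0.444). Without AAV-GFP-2011 and AAV-GFP-2014 it was -0.01, and without 1 mouse it was between 0.04 (AAV-Notum-2033) and 0.18 (AAV-GFP-2013).

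Cfb encodes factor B, the protease of the alternative convertase (chromosome 17, 34856374 to 34862518, minus strand). With 41 to 111 reads per mouse it had the fewest reads of the members. It ran from 3.78 through 4.66 to 6.62 CPM in AAV-GFP mice and from 2.72 through 4.38 to 5.08 CPM in AAV-Notum mice, and the groups overlapped. The log2 fold change of Cfb was -0.20 (standard error 0.18, adjusted p = 0.553, edgeR), and it was -0.095 without AAV-GFP-2014 and -0.021 with the lymphoid score as a covariate. In the annotation used here (GENCODE vM21), only 20.5% of the exonic length of Cfb belonged to no other gene, since 79.5% was shared on the same strand with Gm20547, a read-through model that spans C2 and Cfb and had 0 reads in every mouse. C2 had 53.1% of its exonic length to itself. How the reads of these exons were assigned is not given in the sources used here, so the levels of Cfb and, less so, C2 carry that uncertainty.

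The reads of C1s1 also carry uncertainty. An antisense gene, Gm16567, overlaps part of it, and 81.6% of the C1s1 exonic length was its own; Gm16567 had 5 to 27 reads per mouse. The authors' normalized table, undone to reads, held 0.697 of the C1s1 reads of the raw table, whereas it held 1.00 to 1.02 of those of the other members. Whether the overlap with Gm16567 accounts for the lower C1s1 reads was not tested. Near copies of members had few reads, with 14 to 65 per mouse for C4a, 0 to 10 for C1rb and 2 to 20 for C1s2, beside 14416 to 36276 for C4b, 1034 to 1870 for C1ra and 3835 to 7727 for C1s1.

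Alb mRNA, which is made by hepatocytes, varied by 213-fold between the mice, far more than any member. It ran from 44.0 through a median of 166 to 3805 CPM in AAV-GFP mice and from 17.8 through 37.1 to 523 CPM in AAV-Notum mice. AAV-GFP-2013 was highest, followed by AAV-GFP-2014 and AAV-Notum-2041, and the groups overlapped (log2 fold change -2.83, unadjusted p = 0.0437 from edgeR, exact permutation p = 0.108). Over the same mice the highest level of a member was between 1.73 times (C3) and 2.76 times (C4b) its lowest.

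A relation to Alb was not detected for any of the 9 members. Pearson's r of log2 CPM with Alb over 12 mice was between -0.33 (C1qb) and 0.22 (Cfb), with r = 0.01 for C3, 0.13 for C4b, 0.09 for C1s1 and 0.01 for C1ra. Spearman's rho was between -0.36 (C1qc) and 0.22 (C1s1, C4b). After adjustment over all genes tested, the permutation p of r was 0.9998 for all 9 members and that of rho was 1.0 (two-sided, 100000 resamples), where 0.706% of all genes tested had a positive r with an adjusted p under 0.05. These were 9 of 63 relations computed for the members, with Alb and 5 marker scores (the mean log2 CPM of a list) over the 12 mice and again with the lymphoid score over 10. Within the AAV-GFP group r ran from -0.52 (C1ra, C1s1) to 0.34 (C3) and within the AAV-Notum group from -0.39 (C1qb) to -0.01 (C1s1), all with an exact permutation p of 0.276 or above. Leaving out AAV-GFP-2013 and AAV-GFP-2014, the mice farthest from the median, gave r of -0.18 (C2) to 0.02 (C3).

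Complement genes that are known as liver-made are given beside the members as a description, since they were chosen after their values were seen. C9, a protein of the membrane attack complex, had r = 0.98 with Alb (rho = 0.96), Cfi, which encodes the protease factor I, had r = 0.98 (rho = 0.92), C8a had r = 0.96 (rho = 0.88) and Hc, which encodes C5, had r = 0.95 (rho = 0.90). Without AAV-GFP-2013 and AAV-GFP-2014 their r stayed between 0.85 and 0.95. C8a was at 0.203 CPM in AAV-Notum-2031, the mouse of lowest Alb, and at 65.1 CPM in AAV-GFP-2013, the mouse of highest Alb. Between the same 2 mice C3 went from 1765 to 2173 CPM, C4b from 782 to 1213 CPM and C1s1 from 209 to 267 CPM, whereas C1qa went from 127 to 117 CPM and Cfb from 5.08 to 4.21 CPM.

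**Figure D2:**
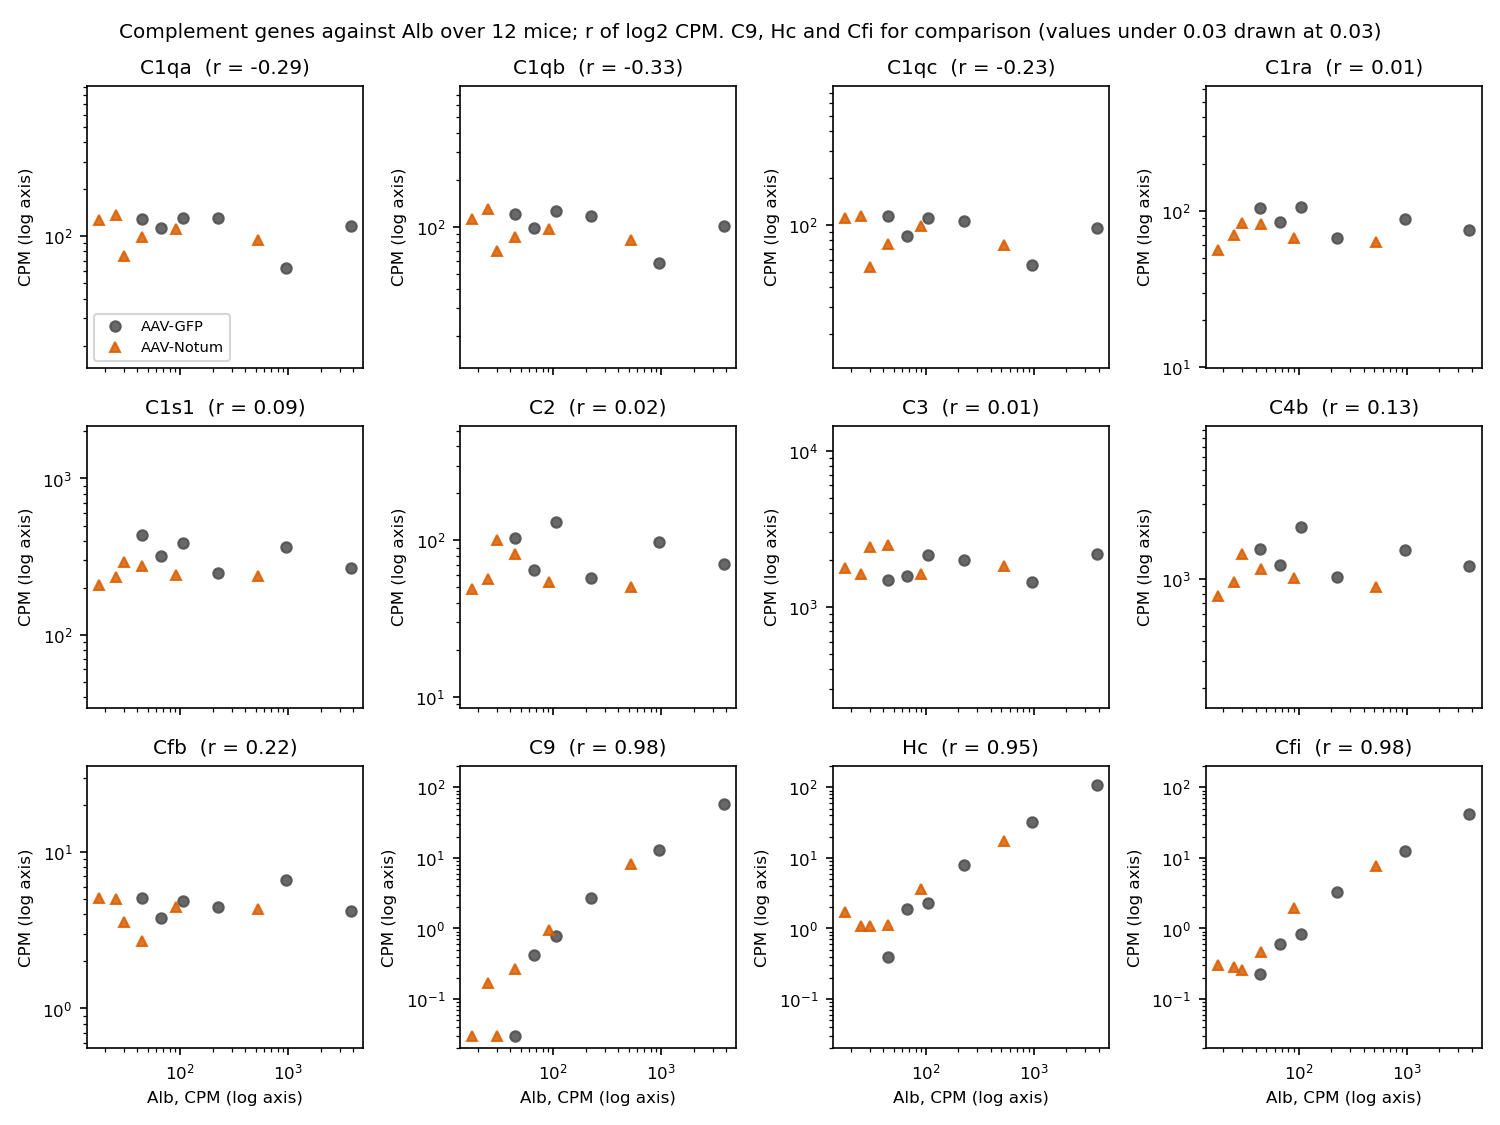
Level of each member against Alb (both CPM, log axes), 1 point per mouse, with C9, Hc and Cfi for comparison; r is Pearson's r of log2 CPM. Alb spans 213-fold while no member spans more than 2.76-fold; C9, Hc and Cfi, at r of 0.95 to 0.98, were chosen after their values were seen.

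A straight line of member CPM on Alb CPM described the same values. At an Alb of 0 the line gave 98.6% of the mean level for C3, 99.4% for Cfb, 100.1% for C4b and 100.7 to 101.4% for the other 6 members. For C3 the slope was 53.4 CPM per 1000 CPM of Alb, and it was -424 without AAV-GFP-2013, so the slope rested on that mouse. The same lines gave -6.39% of the mean at an Alb of 0 for C8a, 5.70% for Hc and 6.09% for Cfi. In the 3 mice of highest Alb, C3 was 1815 ± 366 CPM (n = 3) and in the other 9 mice 1904 ± 376 CPM (n = 9), and C4b was 1213 ± 326 and 1260 ± 415 CPM. A line over 12 mice does not identify the source of an RNA, and AAV-Notum-2031, the mouse of lowest Alb, was also the lowest of the 12 mice for C1ra, C1s1, C2 and C4b.

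With log2 Alb as a covariate in edgeR, the log2 fold changes were further below 0 for C1s1 (-0.54, unadjusted p = 0.00543, adjusted 0.197), C4b (-0.58, 0.0279, adjusted 0.325), C1ra (-0.41, 0.0167, adjusted 0.273) and C2 (-0.56, 0.0680, adjusted 0.417). C3 stayed near its value at 0.16, and the C1q chains were at -0.22, -0.26 and -0.25 with adjusted p of 0.528 or above.

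**Figure D3:**
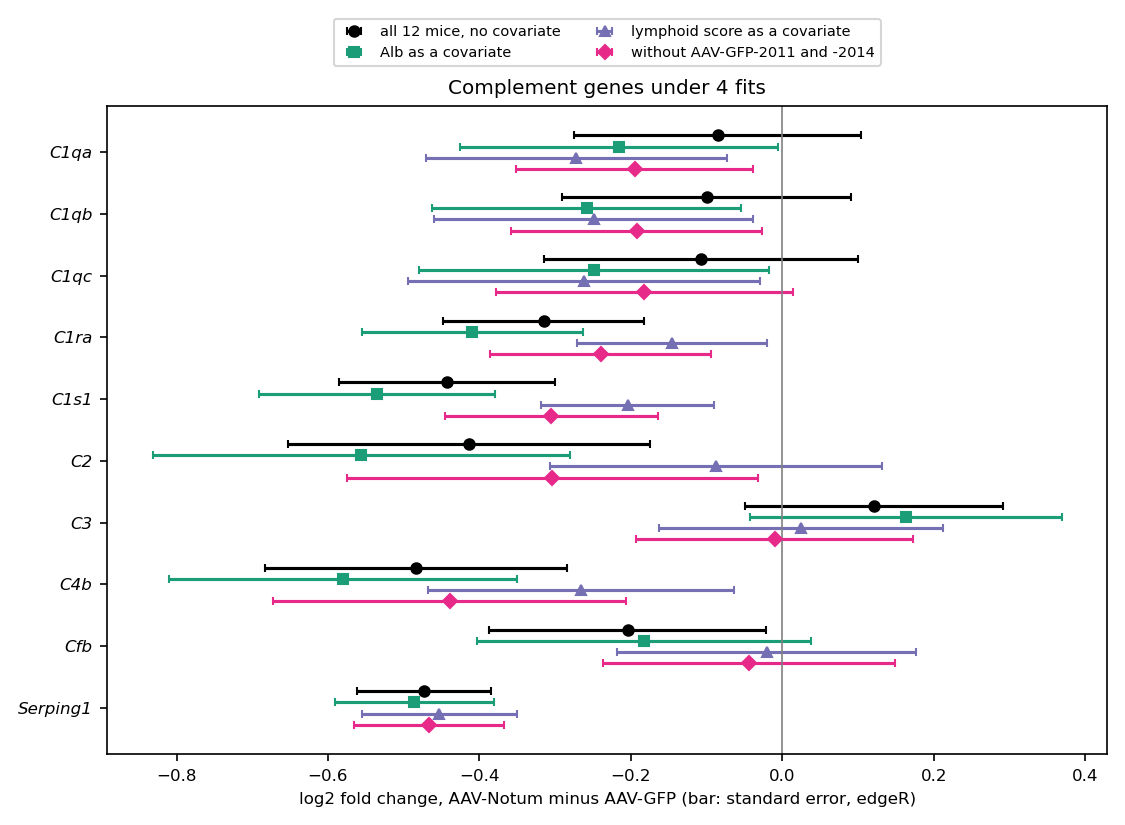
The log2 fold change (AAV-Notum minus AAV-GFP) of each member and of Serping1 with its standard error, in 4 edgeR fits. C1ra, C1s1, C2 and C4b move toward 0 with the lymphoid score as a covariate (C1s1 from -0.44 to -0.20), whereas Serping1 stays between -0.49 and -0.45.

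Among themselves the members fell into separate patterns over the 12 mice. These correlations share libraries and scaling and are given as descriptions. C1qa, C1qb and C1qc varied together, with r of 0.99 (C1qa and C1qb) and 0.97 (both pairs with C1qc). The ratio of C1qb to C1qa in CPM stayed between 0.867 and 0.959, with a coefficient of variation of 4.06%, and that of C1qc to C1qa between 0.729 and 0.885. The genes lie side by side on chromosome 4, C1qa (136895917 to 136898803), C1qc (136889804 to 136893065) and C1qb (136880129 to 136886187), all on the minus strand, with gaps of 2851 and 3616 bp. Promoter windows of 5 members were available from RefSeq (GRCm38.p6), from 250 bases before to 50 after the RefSeq start site. Those of C1qb (chr4:136886151-136886450, minus strand) and C1qc (chr4:136892865-136893164, minus strand) are shown because the genes moved together. The RefSeq start of C1qc lies inside the gene as placed by GENCODE, as does most of its window. Capitals mark a match to the motifs searched.
C1qb: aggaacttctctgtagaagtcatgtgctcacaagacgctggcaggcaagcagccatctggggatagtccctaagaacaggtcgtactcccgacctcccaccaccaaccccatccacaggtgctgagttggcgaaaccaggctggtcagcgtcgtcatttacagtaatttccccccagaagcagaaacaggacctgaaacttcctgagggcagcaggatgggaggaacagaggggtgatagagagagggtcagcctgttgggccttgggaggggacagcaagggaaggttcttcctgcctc
C1qc: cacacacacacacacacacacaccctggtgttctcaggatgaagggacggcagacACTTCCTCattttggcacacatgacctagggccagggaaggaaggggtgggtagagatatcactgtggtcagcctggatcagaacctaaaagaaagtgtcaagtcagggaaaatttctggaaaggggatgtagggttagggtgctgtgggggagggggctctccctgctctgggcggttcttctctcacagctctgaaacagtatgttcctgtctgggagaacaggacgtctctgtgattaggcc
The motifs, searched on both strands, were the PU.1 core GAGGAAGT, the IRF pair GAAANNGAA, the STAT site TTCNNNGAA and the TATA box TATAAA. The C1qc window held 1 match to the PU.1 core, starting 195 bases before the start site, as did 3.2% of 32851 windows of this length; the C1qb window held no match to these letters.

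C1ra, C1s1, C2 and C4b formed the other group of genes, with r of 0.96 for C1ra and C1s1, 0.96 for C2 and C4b, 0.94 for C1ra and C4b, 0.93 for C1ra and C2, 0.91 for C1s1 and C4b, and 0.87 for C1s1 and C2. After subtracting group means r was 0.85 to 0.96 among these 4 genes and 0.97 to 0.99 among the C1q chains. C1ra and C1s1 are neighbours 6901 bp apart that run in opposite directions, and Cfb lies 85 bp from C2. Between the C1q chains and these 4 genes r was -0.28 to -0.06. The windows of C1ra (chr6:124512371-124512670, plus strand) and C1s1 (chr6:124542310-124542609, minus strand) are shown for the same reason as above. Most of the C1ra window lies inside the gene as placed by GENCODE, which begins at 124512405.
C1ra: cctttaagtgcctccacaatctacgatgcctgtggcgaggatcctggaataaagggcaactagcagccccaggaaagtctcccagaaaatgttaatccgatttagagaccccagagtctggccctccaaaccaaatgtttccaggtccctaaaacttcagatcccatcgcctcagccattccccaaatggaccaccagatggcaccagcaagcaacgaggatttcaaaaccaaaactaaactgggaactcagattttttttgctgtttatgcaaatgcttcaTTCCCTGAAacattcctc
C1s1: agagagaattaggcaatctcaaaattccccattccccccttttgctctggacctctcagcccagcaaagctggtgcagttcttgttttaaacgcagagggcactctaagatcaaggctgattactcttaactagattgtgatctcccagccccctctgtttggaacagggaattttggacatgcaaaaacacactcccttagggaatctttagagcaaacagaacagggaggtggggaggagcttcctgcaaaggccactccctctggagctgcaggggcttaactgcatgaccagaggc
The C1ra window held 1 match to the STAT site, as did 8.3% of all windows, and the C1s1 window held none of the 4 motifs. In the C3 window the letters of the TATA box were matched once, as in 13.6% of windows. Both matches lie after the RefSeq start site, starting 32 bases after it for C1ra and 14 bases after it for C3. A match is a description of letters and not a binding site.

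C3 and Cfb varied apart from both groups and in opposite directions from each other, with r of -0.71 between them and of -0.19 to 0.22 between C3 and the other 7 members. The ratio of C4b to C3 was 0.830 ± 0.248 in AAV-GFP and 0.533 ± 0.0759 in AAV-Notum mice, running from 0.518 to 1.07 and from 0.443 to 0.618, so that the groups overlapped. The ratio of C2 to C4b varied with a coefficient of 9.81% and was alike in the groups, at 0.0592 ± 0.00511 and 0.0620 ± 0.00687.

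**Figure D4:**
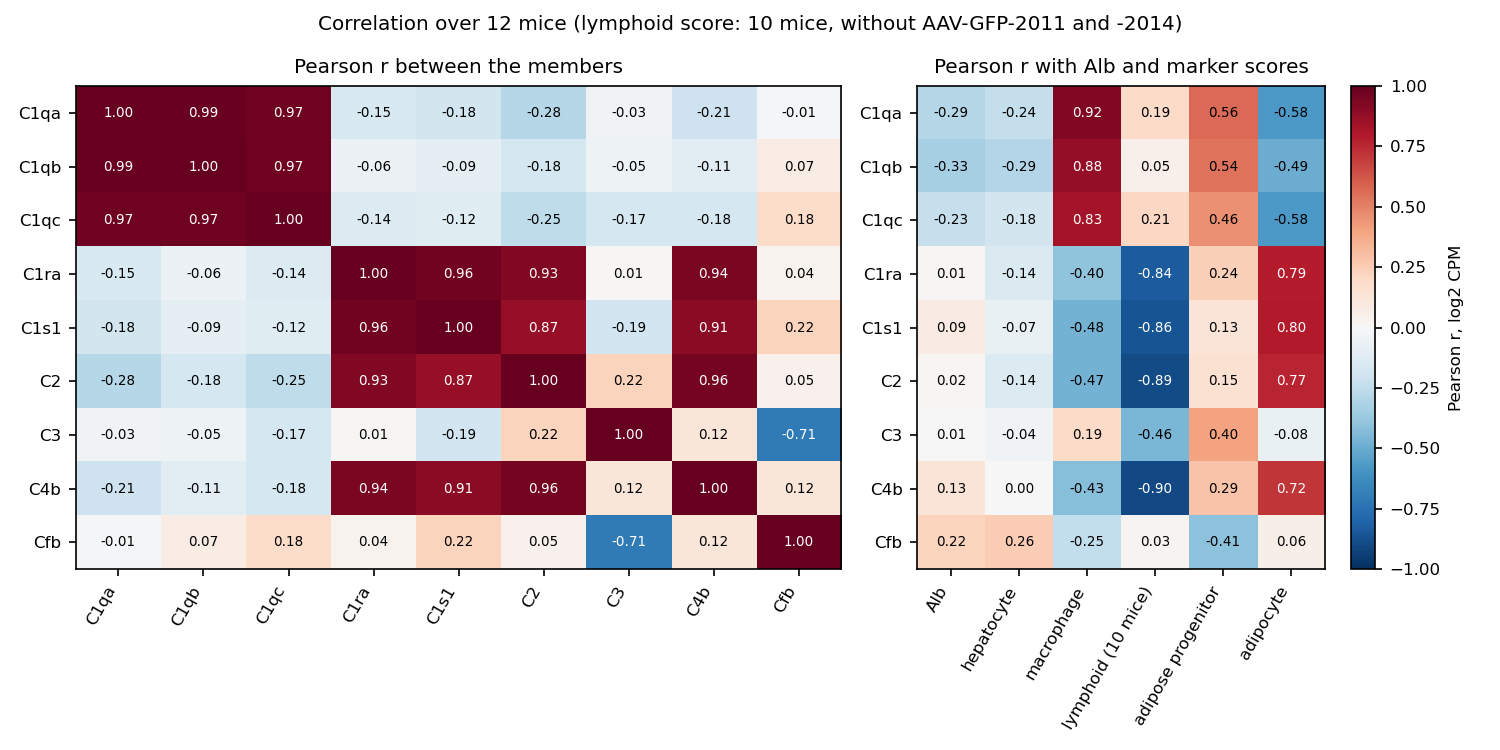
Pearson's r of log2 CPM between the members (left) and of the members with Alb and marker scores (right), over 12 mice, or 10 for the lymphoid score. The C1q chains form a block at 0.97 to 0.99 and C1ra, C1s1, C2 and C4b a block at 0.87 to 0.96, and the Alb column lies between -0.33 and 0.22.

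The C1q chains followed the macrophage markers. Pearson's r with the macrophage score over 12 mice was 0.92 for C1qa, 0.88 for C1qb and 0.83 for C1qc (adjusted permutation p = 0.0203, 0.0304 and 0.0319), where 6.24% of all genes tested had a positive r at that threshold. Spearman's rho was 0.90, 0.83 and 0.78, with adjusted p of 0.113, 0.117 and 0.117. Without AAV-GFP-2014 and AAV-Notum-2042, which had the lowest scores, r was 0.75, 0.68 and 0.67. Within the AAV-Notum group it was 0.99, 0.98 and 0.97 (exact permutation p = 0.00139 for each), and within the AAV-GFP group 0.96, 0.92 and 0.90 (exact permutation p = 0.0375, 0.0667 and 0.0750). Of the 14 macrophage markers, summing to 457 to 1626 CPM in AAV-GFP and 930 to 1878 CPM in AAV-Notum mice with none at 0, 7 had a higher and 7 a lower mean in AAV-Notum mice. At an unadjusted p under 0.05 in edgeR 2 were lower and 0 higher, where 9.54% and 4.64% of all genes tested were. Cd163, a scavenger receptor of macrophages, was 61.5 ± 13.0 and 31.96 ± 7.04 CPM with no overlap between the groups (adjusted p = 0.0696, edgeR). It was picked out after its values were seen, and 0.693% of all genes tested were likewise lower in every AAV-Notum mouse without overlap. Adgre1 (F4/80) was 28.1 ± 9.34 and 24.0 ± 4.75 CPM, and Csf1r was 118 ± 29.2 and 141 ± 44.9 CPM. With the macrophage score as a covariate the log2 fold changes of C1qa, C1qb and C1qc were -0.18, -0.20 and -0.22 (unadjusted p = 0.0306, 0.0501 and 0.0738; adjusted p = 0.269, 0.309 and 0.332, edgeR).

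C1ra, C1s1, C2 and C4b ran against the lymphoid markers. AAV-GFP-2011 and AAV-GFP-2014 lay apart, at a lymphoid score under 0, so the relation was computed over the other 10 mice, a choice made after seeing the data. There r was -0.84 for C1ra, -0.86 for C1s1, -0.89 for C2 and -0.90 for C4b (adjusted permutation p = 0.00708, 0.0135, 0.00730 and 0.00602), where 16.2% of all genes tested had a negative r at that threshold. Spearman's rho was -0.78, -0.77, -0.72 and -0.73 (adjusted p = 0.0329, 0.0375, 0.0580 and 0.0523). Without AAV-GFP-2012 and AAV-Notum-2042, the lowest of the 10, r was -0.62, -0.69, -0.43 and -0.47, so for C2 and C4b the relation rested largely on those mice. Over all 12 mice r was -0.73, -0.85, -0.71 and -0.68, and within the AAV-Notum group -0.68 to -0.80 with exact permutation p of 0.0542 to 0.121. Over the 10 mice C3 (r = -0.46) and Cfb (r = 0.03) had adjusted p of 0.282 and 0.951. Over all 12 mice r was 0.42 for C3, with the sign turned, and -0.55 for Cfb, whose r within the AAV-GFP group was -0.87 (exact permutation p = 0.00833).

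All 15 lymphoid markers had a higher mean in AAV-Notum than in AAV-GFP mice, where 48.8% of all genes tested had a log2 fold change below 0. At an unadjusted p under 0.05 in edgeR 0 of the 15 were higher, where 4.64% of all genes tested were. Cd79a, a B cell receptor component, was 60.9 ± 55.6 CPM in AAV-GFP and 120 ± 49.0 CPM in AAV-Notum mice. With the lymphoid score as a covariate the log2 fold changes were -0.20 for C1s1, -0.27 for C4b, -0.15 for C1ra and -0.09 for C2, with unadjusted p of 0.0969, 0.211, 0.267 and 0.696. None of the members then had an unadjusted p under 0.05, where 4.89% of all genes tested were lower at that threshold. Whether the lymphoid RNA itself accounts for the difference between the groups was not tested.

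**Figure D5:**
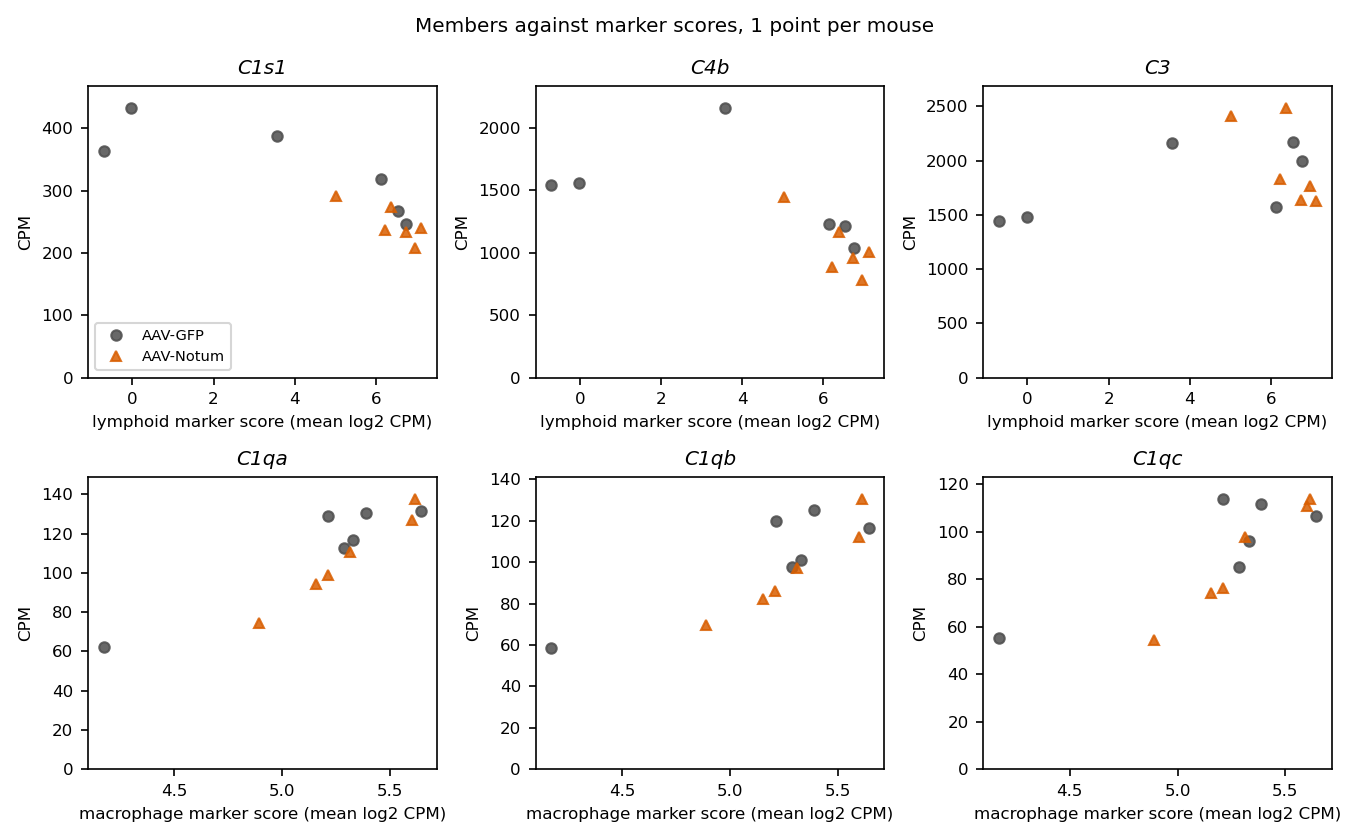
C1s1, C4b and C3 against the lymphoid score (top) and the C1q chains against the macrophage score (bottom), in CPM, 1 point per mouse; a score is the mean log2 CPM of the list. C1s1 and C4b are lower where the lymphoid score is higher, and the C1q chains are lowest in AAV-GFP-2014 and AAV-Notum-2042, the mice with the lowest macrophage scores.

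The adipocyte score gave the converse, with r over 12 mice of 0.79 for C1ra, 0.80 for C1s1, 0.77 for C2 and 0.72 for C4b (rho of 0.85, 0.83, 0.80 and 0.80; adjusted permutation p = 0.00774, 0.00652, 0.0136 and 0.0183), where 28.8% of all genes tested passed. Without AAV-Notum-2031 and AAV-Notum-2032 r was 0.70, 0.73, 0.68 and 0.62. Taken group by group, r lay between 0.70 and 0.91 (AAV-GFP) and between 0.76 and 0.82 (AAV-Notum). C3 (r = -0.08) and Cfb (r = 0.06) had adjusted p of 0.839 and 0.891, and their r differed in sign between the groups, at -0.72 (AAV-GFP) and 0.80 (AAV-Notum) for C3 and at 0.61 and -0.66 for Cfb (exact permutation p of 0.0625 to 0.200). Adipoq, which encodes adiponectin, was 3914 ± 1070 and 3354 ± 1114 CPM. With the adipose progenitor score no member had an adjusted p under 0.9995 (r of -0.41 to 0.56), and 0% of all genes tested had a positive r with an adjusted p under 0.05. Of the 12 progenitor markers 9 had a lower mean in AAV-Notum mice, where 48.8% of all genes tested had a log2 fold change below 0. Pdgfra was 82.1 ± 20.1 and 58.5 ± 3.26 CPM (log2 fold change -0.49, adjusted p = 0.167, edgeR).

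The genes outside the members most like each of them over the 12 mice were named by the highest Pearson's r. They were P2ry6, Cd300a and Tlr13 for C1qa (0.94 to 0.95), Alox5ap, Slc11a1 and P2ry6 for C1qb (0.93 to 0.94), and Ptafr, Ninj1 and Aldh3b1 for C1qc (0.94). For C1s1 they were Serpinf1, Mill2 and Apol6 (0.98), for C1ra Dpep1, Arhgef25 and Ptpdc1 (0.96 to 0.97), for C2 Ccnl2, Phkg1 and Ly6c1 (0.97 to 0.98), and for C4b Efnb1, Ly6c1 and Tcf7l2 (0.96 to 0.98). Those of C3, Slc22a23, Rhbg and Btbd9 (0.85 to 0.89), and of Cfb, Prmt9, Paqr3 and Micall2 (0.82 to 0.83), were less alike.

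Of the other complement genes, described from a list of 54 by role that also holds the members, none passed an adjusted p of 0.05 in edgeR. Every one with an unadjusted p under 0.05 was lower in AAV-Notum mice. All 9 tested genes of the classical pathway had a log2 fold change below 0 (median -0.26), as did 48.8% of all genes tested. They include the members C1qa, C1qb, C1qc, C1ra, C1s1, C2 and C4b, which varied together within the patterns given above. At an unadjusted p under 0.05 (edgeR) 3 of the 9 were lower, the members C1ra, C1s1 and C4b, where 9.54% of all genes tested were. In the alternative pathway 3 of 4 were above 0, the member C3 among them, and the 1 below 0 was the member Cfb. Cfd, the gene of adipsin, was 16006 ± 4319 CPM in AAV-GFP and 17862 ± 5819 CPM in AAV-Notum mice (log2 fold change 0.16, adjusted p = 0.783, edgeR).

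Serping1, which encodes C1 inhibitor, the protein that blocks C1r and C1s, was the complement gene of lowest p, and the study itself had picked it from these libraries. Its level ran from 193 through a median of 225 to 257 CPM in AAV-GFP mice and from 150 through 163 to 182 CPM in AAV-Notum mice. No AAV-Notum mouse reached the level of the lowest AAV-GFP mouse, as for 0.693% of all genes tested. AAV-Notum minus AAV-GFP was -0.47 on the log2 scale (standard error 0.09, unadjusted p = 0.000161, adjusted p = 0.0906, edgeR; exact permutation p = 0.00216, the smallest that 6 mice against 6 allow). With DESeq2 the adjusted p was 0.000669, and with the lymphoid score as a covariate the log2 fold change was -0.45 (adjusted p = 0.256, edgeR). Its r with Alb was 0.39 (adjusted permutation p = 0.9998, rho = 0.40).

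Among the other regulators, Vtn (vitronectin) and Cpn2 (a carboxypeptidase N subunit) had log2 fold changes of -1.11 and -2.49 at adjusted p of 0.340 and 0.324 (edgeR). With Alb as a covariate Vtn was at 0.12 and Cpn2 at -0.32. Without AAV-GFP-2013 Vtn was at -0.31 and Cpn2 at -1.31, and without AAV-Notum-2041 Cpn2 was at -3.81. In the terminal pathway all 6 tested genes were below 0, as were 48.8% of all genes tested. Among the 6 were Hc, C8a and C9, whose levels were highest in AAV-GFP-2013 and which varied with Alb as given above. C6 was 14.5 ± 6.98 and 6.11 ± 1.25 CPM with no overlap between the groups, as for 0.693% of all genes tested (log2 fold change -1.24, adjusted p = 0.131 from edgeR and 0.00592 from DESeq2). C7 was 23.5 ± 8.35 and 12.2 ± 5.28 CPM (log2 fold change -0.94, adjusted p = 0.214). With the lymphoid score as a covariate C7 was at -0.60, with an unadjusted p of 0.0596 from edgeR. With Alb as a covariate C6 was at -0.81.

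In the lectin pathway 4 of 5 tested genes were below 0, as were 48.8% of all genes tested. Fcna (ficolin A) was at a log2 fold change of -0.61 and Masp2, the protease that cleaves C4 and C2, at -1.77 (adjusted p = 0.242 and 0.263, edgeR). Masp2 was at -0.83 without AAV-GFP-2013, the mouse of highest Alb, and at -0.18 with Alb as a covariate. Of 9 tested receptors 5 were below 0, among them C5ar1, the receptor of the C5a fragment, at 14.8 ± 5.51 and 8.74 ± 2.37 CPM (log2 fold change -0.76, adjusted p = 0.214), and Cd93 at -0.42 (adjusted p = 0.314). Cd93 was at -0.16 (unadjusted p = 0.335, adjusted p = 0.838, edgeR) with the lymphoid score as a covariate and at -0.31 (0.139, adjusted 0.804) without the 2 mice low in lymphoid markers. Its unadjusted p was also above 0.05 without any 1 of AAV-GFP-2011, AAV-GFP-2012, AAV-GFP-2014, AAV-Notum-2031, AAV-Notum-2032 and AAV-Notum-2033. Apoa1, a liver apolipoprotein that is no complement gene, had a log2 fold change of -2.80 (adjusted p = 0.411) and an Alb-like range of 0.356 to 430 CPM.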

How the data were processed

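The files held reads per gene for 12 iWAT libraries, 1 per mouse. Per the labels and the study's methods, the authors made TruSeq libraries, sequenced single-end reads of 50 bases on a HiSeq4000 and mapped them to mm10 with STAR 2.3.1. The deposited raw table holds counts per gene. The authors' normalized table holds log2 values of scaled counts, from which 100% of reads came out whole (tolerance 0.02). The counting program and its strand setting are not given in the sources used here. Counts were analysed with edgeR 4.0.16 in R 4.3.3 (filterByExpr, minimum count 10, TMM, two-sided quasi-likelihood test, Benjamini-Hochberg over 15585 genes, threshold 0.05). CPM use the TMM-scaled library and log2 CPM a prior count of 2. Standard errors come from the F statistic, as the size of the log2 fold change over its square root. Exact permutation tests ran over 924 assignments of mice on mean log2 CPM, and those of correlations over 100000 resamples (Python 3.11.15, SciPy 1.17.1). Genes named were the 9 members, Alb, Notum, complement genes with an unadjusted p under 0.05, near copies, 6 defining markers and the 3 genes most like each member. A gene that this rule names is not reported here. Gm20547 and Gm16567 were added for overlap, and C8a, C9, Hc, Cfi, Cfd, Cyp2e1 and Cd163 once seen. Other settings tried were DESeq2 1.42.0, RLE scaling, other filters, the normalized table, covariates and mice left out. On simulated counts (200 of 15585 genes changed by a log2 fold change of 1) edgeR recovered 52% of changed genes. That change is larger than that of any member (C4b, -0.48, is the largest), so recovery at the changes of the members was not measured. Positions follow GENCODE vM21 of GRCm38. The members and lists were chosen with earlier results of these data known. P-values measure the spread between these mice.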

Additional observations from a re-analysis of the deposited data

Results flagged for a closer look

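In all, 9 values stood apart from the other mice of their group, out of 50 groups of 6 examined, where chance gives about 1 in 20 (2.5 groups). C1qa was 62.4 CPM in AAV-GFP-2014, below the 112 to 131 CPM of the other AAV-GFP mice, and the macrophage score of the same mouse, 4.17, was below the 5.21 to 5.64 of the others. Alb was 3805 CPM in AAV-GFP-2013, above 44.0 to 963 CPM in the others, and 523 CPM in AAV-Notum-2041, above 17.8 to 90.7 CPM. AAV-GFP-2013 also stood above its group for Masp2 (15.04 CPM against 1.43 to 5.30), Vtn (183 CPM against 21.4 to 60.7) and Cpn2 (21.4 CPM against 0.673 to 8.11). Cpn2 was 4.06 CPM in AAV-Notum-2041, above 0.133 to 0.681 CPM in the others. C5ar1 was 13.1 CPM in AAV-Notum-2034, above 6.76 to 9.15 CPM.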

How the results depend on the processing

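No member passed an adjusted p of 0.05 in any alternative run, the lowest being 0.0746 (C1s1 without AAV-GFP-2022, edgeR). Among alternative log2 fold changes of members 233 kept their sign, and 1 did not: C3 without both AAV-GFP-2011 and AAV-GFP-2014 came to -0.010. Vtn came to 0.12 with Alb as a covariate. In edgeR, C1ra and C4b were no longer under an unadjusted p of 0.05 without any 1 of AAV-GFP-2011, AAV-GFP-2012, AAV-GFP-2014, AAV-Notum-2031, AAV-Notum-2032, AAV-Notum-2034 and AAV-Notum-2041 (up to 0.0853 and 0.0848). The same held with RNA integrity in the fit (0.0957 and 0.0706), and without the 3 mice of highest Alb (0.0736 and 0.0868), an alternative chosen after seeing the data, as were recovered reads and the lymphoid score over 10 mice; the cause was not tested. Over all genes, 8 were lower and 0 higher with edgeR. Genes lower numbered 357 with DESeq2, 13 with RLE size factors, 5 with a filter of 1 count in all, 14 with 10 counts in every mouse, 4 with the normalized table, 1 without both mice low in lymphoid markers, 27, 13 and 4 with the hepatocyte, macrophage and lymphoid scores as covariates, 0 without the 3 mice of highest Alb, and 1 (without AAV-Notum-2033) to 146 (without AAV-GFP-2022) without 1 mouse. Genes higher numbered 79 with DESeq2, 1 with RLE size factors, 1 with 10 counts in every mouse, 3 with the hepatocyte score, 1 with reads recovered from the normalized table, and 0 to 12 without 1 mouse. Pearson's r with Alb was near 0 and changed sign for members as follows. On unlogged CPM it was -0.075 for C1ra, -0.065 for C1s1, -0.050 for C2 and -0.0042 for C4b, and against the hepatocyte score -0.14 for C1ra, -0.073 for C1s1, -0.14 for C2 and -0.036 for C3. Within AAV-GFP mice it was -0.52 for C1ra and C1s1, -0.23 for C2 and -0.28 for C4b, and within AAV-Notum mice -0.15 for C1ra, -0.0084 for C1s1, -0.31 for C2, -0.14 for C3, -0.16 for C4b and -0.052 for Cfb. Without AAV-GFP-2013 and AAV-GFP-2014 it was -0.093 for C1ra, -0.020 for C1s1, -0.18 for C2 and -0.017 for C4b. Without 1 mouse it ran from -0.22 to 0.12 for C1ra, -0.084 to 0.25 for C1s1, -0.14 to 0.13 for C2, -0.25 to 0.21 for C3, -0.055 to 0.25 for C4b and -0.015 to 0.36 for Cfb. Cfb had the fewest reads. No paired analysis was possible because the groups share no mouse numbers.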
